A study of Mus musculus with 21 samples.

Results

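Chromatin domains that had the same extent in 2 unlike mouse cell types are described here. They are the domains of the combined Th2 map for which a single domain of the combined embryonic stem (ES) map started within 40 kb and ended within 40 kb of it on the same chromosome. The rule was met by 463 of the 1941 Th2 domains, which is 23.9% of that list (95% exact Clopper-Pearson interval 22.0% to 25.8%, which treats domains as independent). Their ES counterparts were 463 different domains, 22.7% of the 2042 in the ES map. No Th2 domain had more than 1 counterpart and no ES domain served more than once. The members were chosen by the start and end positions in the 2 combined lists, so these values are a description and carry no test.

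A chromatin domain, also called a topologically associating domain, is a segment of a chromosome within which contacts are frequent and across whose borders they are scarcer. Such domains form as cohesin extrudes loops of chromatin that halt at sites bound by the insulator protein CTCF, and they limit which enhancers can reach which promoters. Many domain boundaries are known to be kept between cell types, while contacts inside a domain follow the genes that a cell uses. A domain is kept whole only when both of its boundaries are kept and none arises between them.

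The series measured chromatin contacts, chromatin marks and RNA in 21 samples of mouse cells, of which the 4 libraries of 3e Hi-C are used here. Hi-C ligates and sequences DNA ends that lie near each other in fixed nuclei, and here chromatin fixed with formaldehyde was cut with the restriction enzymes CviQ I, CviA II and Bfa I. The Th2 group (2 libraries) was naive CD4 T cells from lymph nodes of C57BL/6 mice, sorted as CD4+CD25-CD62LhiCD44low and polarised in culture with IL-4, IL-2, anti-IFNγ and anti-IL-12 through 2 rounds. The ES group (2 libraries) was the R1 line, labelled with the strain 129X1 x 129S1 and grown on feeder cells. Cell type and mouse strain therefore cannot be told apart. The files used hold no expression of Th2 or ES cells, so neither label was checked against markers. Nothing in the labels says that the libraries of a cell type came from separate cultures, and the read depth behind the lists is unknown.

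The deposited lists differed in how finely they cut the genome. The Th2 libraries held 1961 and 1689 domains with median widths of 680 and 840 kb, and the ES libraries held 1828 and 1833 domains with a median of 920 kb in both. In all 6 lists, edges recurred at 2 fixed coordinates. The position 7 Mb was a domain edge on 15 to 17 of 20 chromosomes, and 43 Mb on 14 to 16, while no other position was an edge on more than 9 chromosomes in any list. Of the conserved domains 23 (4.97%) had such an edge, against 41 of the 1478 other Th2 domains (2.77%). Without all domains of this kind, 440 conserved domains remained, 23.4% of the Th2 domains then counted. The part of these recurring edges in the other results was not tested except where a value without them is given.

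The conserved domains had exact edges at both ends in 171 cases (36.9%). In 220 (47.5%) 1 edge was exact and the other lay 40 kb away, and in 72 (15.6%) both edges were displaced. Exact matches made up 155 of the 440 conserved domains without a recurring edge (35.2%) and 16 of the 23 with one (69.6%). The start was at the same position in 288 domains, and the end in 274. Of the displaced starts, the ES start lay downstream of the Th2 start in 122 domains and upstream in 53. The ES end lay downstream of the Th2 end in 91 domains and upstream in 98. In the pairs of a Th2 with an ES library given further on, the ES start also lay more often downstream. The ends were more uneven there with Th2 library 1, so this contrast between starts and ends was not the same in every library pair. The Th2 domain was the wider of the pair in 161 cases (34.8%), the ES domain in 105 (22.7%), and 197 (42.5%) had equal widths, of which 26 were shifted as a whole by 40 kb. A displacement of 40 kb is 1 step of the grid on which the lists were made, so its exact size cannot be resolved.

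**Figure D1:**
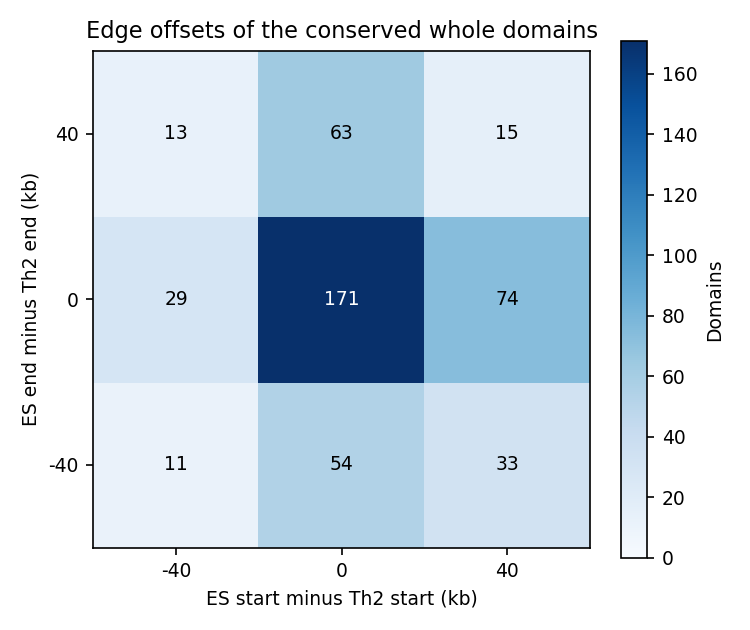
Number of conserved whole domains by the offset of the ES start from the Th2 start (horizontal axis, kb) and of the ES end from the Th2 end (vertical axis, kb). The centre holds the 171 domains with identical edges, and the right column (ES start 40 kb downstream) holds 122 domains against 53 in the left column. In the 4 Th2-ES library pairs the ES start also lay more often downstream. These counts were 90 and 60, 89 and 65, 84 and 58, and 75 and 67.

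Library pairs showed how far such small offsets occur between replicates. Among domains matched whole between the Th2 libraries 54.8% had identical edges, and 50.2% did between the ES libraries. In the 4 pairs of a Th2 with an ES library the share was 31.0% to 36.1%. The ES start lay downstream in 90 and upstream in 60 matches of Th2 library 1 with ES library 1, and in 89 and 65 with ES library 2. For Th2 library 2 these counts were 84 and 58 with ES library 1, and 75 and 67 with ES library 2. The ES end lay downstream in 52 and upstream in 94 matches of Th2 library 1 with ES library 1, and in 48 and 116 with ES library 2. For Th2 library 2 they were 71 and 81 with ES library 1, and 66 and 78 with ES library 2. In the pairs with Th2 library 1 the ends were thus the more uneven side. Ends were uneven between replicates as well. The end in library 2 lay downstream of that in library 1 in 75 and upstream in 186 matches for Th2. For ES these counts were 111 and 184, so uneven ends are not particular to the Th2-ES pairs. The start in library 2 lay downstream in 93 and upstream in 120 matches for Th2, and in 144 and 140 for ES. Unlike in the Th2-ES pairs, the starts were thus nearly even for ES and more often upstream for Th2. This was not tested. In the 4 pairs of a Th2 with an ES library the Th2 domain was wider in 30.6% to 37.6% of matches and the ES domain in 19.4% to 27.8%. Between replicates the first library had the wider domain in 25.0% and the second in 16.4% of matches (Th2), and 26.3% and 19.9% (ES), so unequal widths also occurred within a cell type. The 185 conserved domains found whole in all 4 libraries summed to 171.8 and 171.1 Mb in the Th2 libraries, against 169.9 and 168.9 Mb in the ES libraries. Both Th2 sums were above both ES sums. Domain by domain, both Th2 libraries gave a wider call than both ES libraries in 41 of the 185 (22.2%), and a narrower one in 12 (6.49%).

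The conserved domains covered 402 Mb, or 19.8% of the 2034 Mb in Th2 domains, and their ES counterparts 399 Mb, or 18.4% of the 2164 Mb in ES domains. The stretches that both calls of a pair share summed to 393 Mb. Their median width was 680 kb in the Th2 map (quartiles 440 and 1060 kb, range 160 to 4600 kb), and the other Th2 domains had a median of 760 kb (quartiles 440 and 1360 kb, range 160 to 11840 kb). The order of these medians turned round when a reciprocal overlap of 90% replaced the edge tolerance, to 840 kb for matched and 720 kb for other Th2 domains. In the ES map the counterparts also had a median of 680 kb, against 880 kb for the other ES domains. The 23 conserved domains with a recurring edge were much wider, with a median of 2000 kb, and the 440 without one had a median of 640 kb.

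The widest conserved domain, at chr3:146680001-151280000 (4600 kb, mm9), was called as 1 unit in every library. Its width was 4640 and 4480 kb in the Th2 libraries and 4640 and 4680 kb in the ES libraries. Its start in Th2 library 2 lay 80 kb inside the combined call, so by the 40 kb rule that library did not count as holding it whole. Next came chr5:7000001-10880000 (3880 kb), which starts at a recurring edge. It was called at 3880 kb in both Th2 libraries and at 3840 and 3880 kb in the ES libraries. The domain chr17:9200001-12200000 (3000 kb) had identical edges in all 4 libraries and both combined maps, and neither edge was a recurring one.

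Conserved domains of the combined maps could still differ in the single libraries. At chr5:126000001-129480000 (3480 kb) the combined Th2 and ES calls were identical. The Th2 libraries gave 3480 and 3440 kb, whereas the ES libraries ended 480 and 240 kb earlier, at 3000 and 3240 kb. At chr7:12160001-15320000 (3160 kb) Th2 library 1 gave a 4800 kb domain that began 1520 kb further upstream, and Th2 library 2 gave 3080 kb. ES library 1 split the same stretch into domains of 1480 and 1560 kb, and ES library 2 gave 3120 kb. Only ES library 2 held this domain whole. The narrowest conserved domains, chr1:172800001-172960000 and chr12:86680001-86840000, were 160 kb wide in both combined maps. The one on chromosome 1 was covered by a domain of 1520 kb in Th2 library 2. The one on chromosome 12 lay within domains of 1080 and 2440 kb in the ES libraries.

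**Figure D2:**
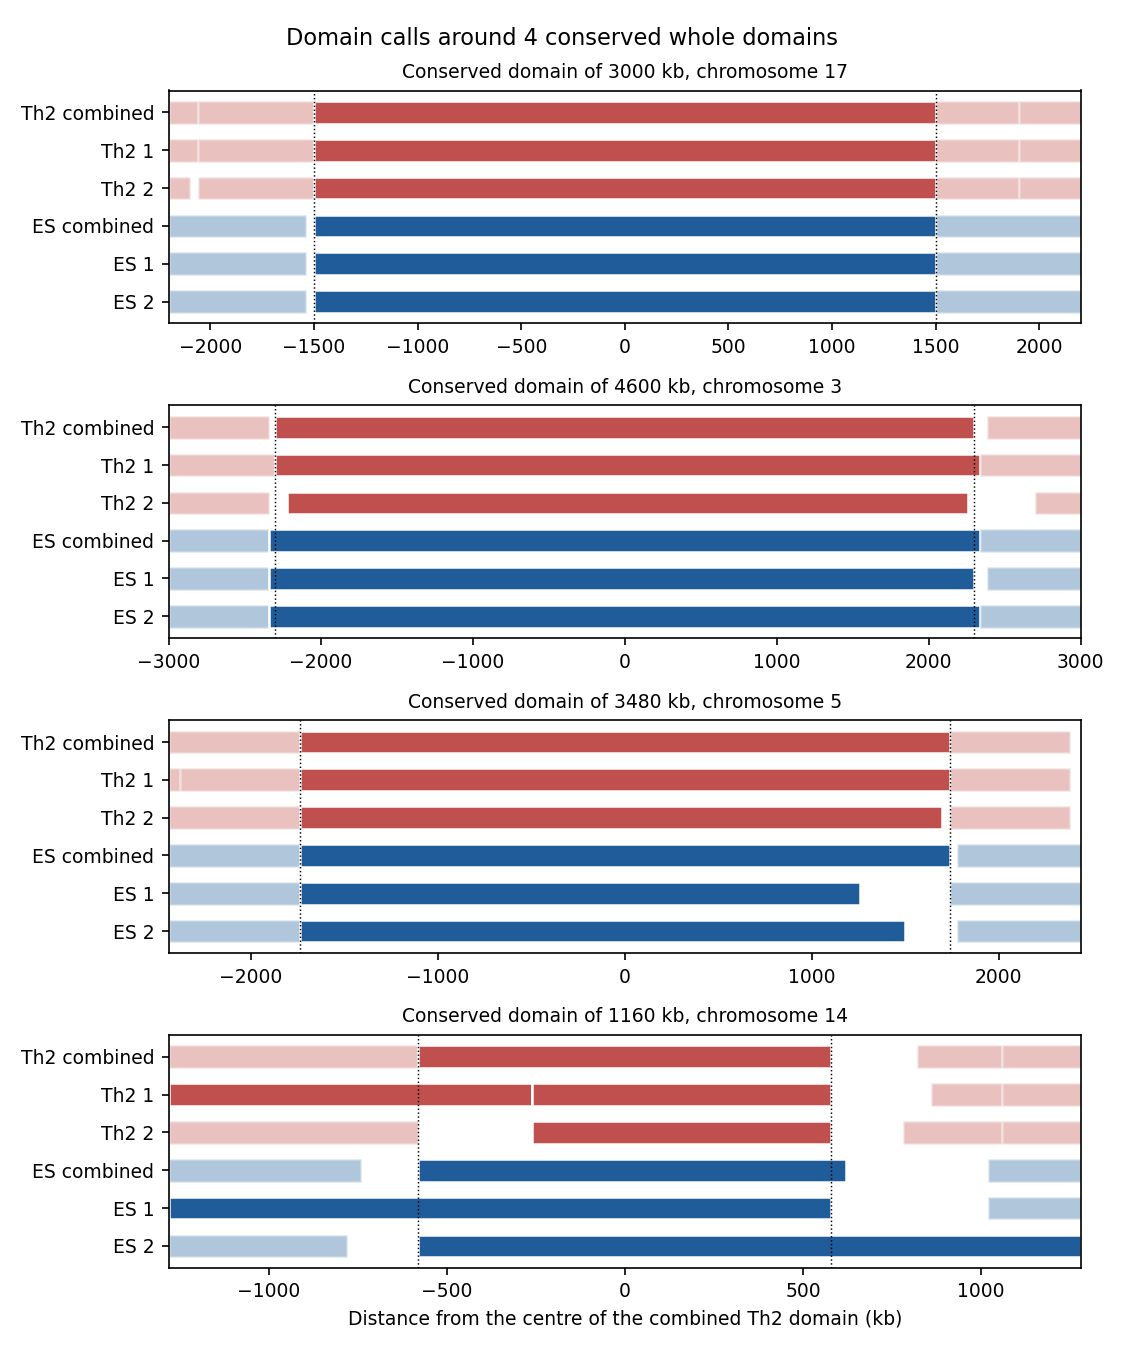
Domain calls in the combined map and both libraries of Th2 (red) and ES (blue) around 4 conserved domains, plotted by distance in kb from the centre of the combined Th2 domain, whose edges are the dotted lines. Dark bars overlap that domain and pale bars are neighbours cut at the panel's sides. The 3000 kb domain is identical in all 6 rows, the 4600 kb domain differs by small steps, the 3480 kb domain ends early in both ES libraries, and the 1160 kb domain is whole in none of the 4 libraries.

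Each conserved domain was looked up in the libraries of its own cell type, the Th2 call in the Th2 libraries and the ES call in the ES libraries. Th2 libraries 1 and 2 held 378 (81.6%) and 340 (73.4%) of the 463 whole, against 66.8% and 60.1% of all 1941 combined Th2 domains. ES libraries 1 and 2 held 347 (74.9%) and 357 (77.1%), against 64.6% and 64.3% of all 2042 combined ES domains. Both Th2 libraries held 284 (61.3%), where the share over all Th2 domains was 43.6%. Both ES libraries held 279 (60.3%), where the share over all ES domains was 46.1%. In each library the conserved domains were thus recovered more often than the whole list. The combined maps come from these same libraries, so this is no independent support, and it was not tested.

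The call of one cell type was also looked up in the libraries of the other. The rule chose the members for matching the map made from those libraries, so the gap to the full list is fixed by the rule and is given as a description. The Th2 call of a conserved domain was present whole in 336 (72.6%) and 337 (72.8%) cases in the ES libraries, against 19.8% and 20.4% of all Th2 domains. The ES call was present in 372 (80.3%) and 330 (71.3%) cases in the Th2 libraries, against 22.7% and 19.5% of all ES domains. Of the 463 domains 185 were whole in all 4 libraries, 163 (35.2%) in 3, 83 (17.9%) in 2, 27 (5.83%) in 1 and 5 (1.08%) in none. Identical edges in all 4 libraries and both combined maps were found for 33 domains, 6 of them with a recurring edge.

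**Figure D3:**
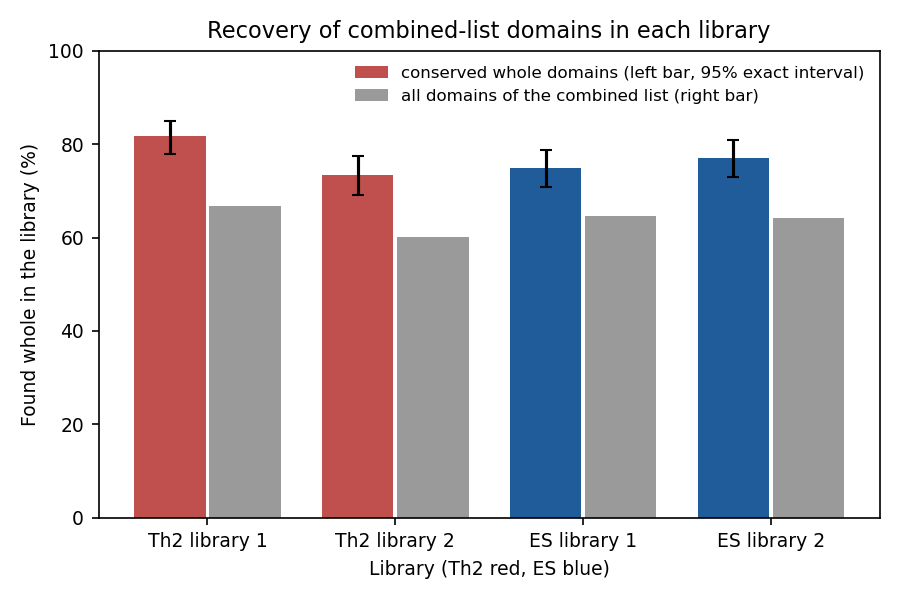
Share of domains found whole in each library (percent), for the 463 conserved domains (coloured bars with 95% exact binomial intervals) and for all domains of the combined map of that cell type (grey bars). The conserved domains lie between 73.4% and 81.6% and the full lists between 60.1% and 66.8%. The intervals treat domains as independent, and the combined maps come from these same libraries, so the gap carries no test.

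Conserved domains that a library did not hold whole mostly kept 1 of their edges there. In Th2 libraries 1 and 2 this was so for 56 of 85 and 91 of 123 such domains, and in ES libraries 1 and 2 for 92 of 116 and 89 of 106. At the other end the nearest edge of that library lay a median of 320 and 400 kb away in the Th2 libraries and 360 and 440 kb away in the ES libraries. Both edges were present but not as 1 domain in 28 and 23 cases in the Th2 libraries and in 18 and 15 in the ES libraries. Neither edge was present in 1 and 9 cases in the Th2 libraries, and in 6 and 2 in the ES libraries. The same shares for other combined domains that a library did not hold whole were not computed. The combined maps come from these same libraries, so these shares are not particular to conserved domains on this evidence.

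The 5 domains found whole in no library were 200 to 1160 kb wide. At chr2:84280001-85440000 (1160 kb) both Th2 libraries had 1 domain of 5880 kb with the same start, while the ES libraries had domains of 2000 and 2200 kb with an end at the combined Th2 end. At chr14:104120001-105280000 (1160 kb) the Th2 libraries had a domain with the same end that began 320 kb further downstream. There the domain of ES library 1 began 720 kb further upstream, and that of ES library 2 ended 1600 kb further downstream. These intervals were units in the combined maps but in none of the 4 libraries.

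Whole-domain matches were next counted between single libraries, over all their domains and without the combined maps. For each pair, the percentages obtained from either list were averaged. The Th2 libraries matched each other in 49.9% of domains and the ES libraries in 55.1%. The 4 pairs between cell types matched in 20.2%, 20.9%, 19.1% and 20.1%. The mean was 52.5% within and 20.1% between cell types, a difference of 32.4 percentage points. Both pairs within a cell type lay above every pair between them. The one-sided exact permutation test over the 3 ways to pair 4 libraries gave p = 0.333, the smallest value this design can give, so the difference cannot pass a threshold of 0.05. The match between cell types was 38.2% of the match between replicates. The share that unrelated domain lists of this density would reach was not computed.

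**Figure D4:**
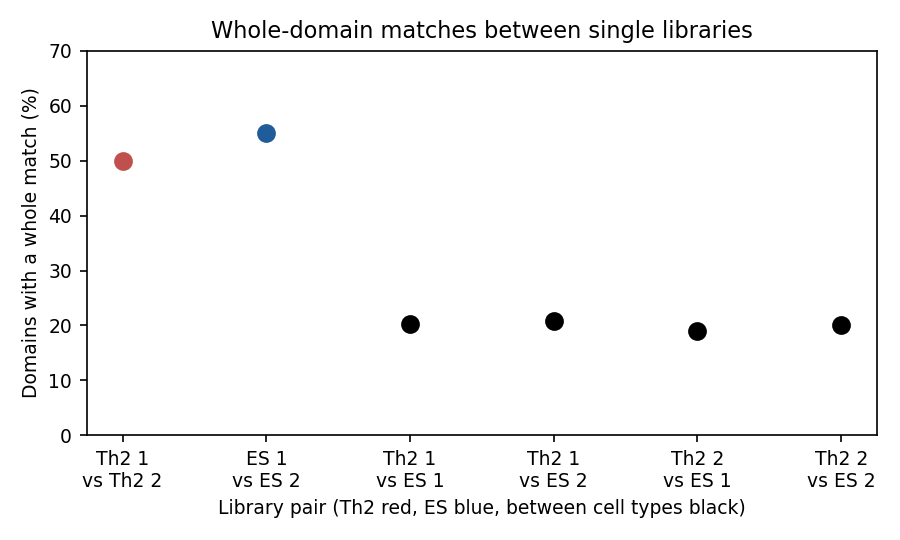
Share of domains with a whole match between 2 libraries (percent, mean of both directions), 1 point per library pair. The pairs within a cell type lie at 49.9% (Th2) and 55.1% (ES), and the 4 pairs of a Th2 with an ES library between 19.1% and 20.9%.

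Under the 40 kb rule the share conserved was lowest for the widest domains, an order that depends on the rule. Of the Th2 domains up to 400 kb wide 95 of 420 were conserved (22.6%). The share was 29.5% (187 of 634) above 400 and up to 800 kb, 26.2% (92 of 351) up to 1200 kb and 16.3% (33 of 203) up to 1600 kb. It was 24.4% (31 of 127) up to 2000 kb and 12.1% (25 of 206) above that, or 8.74% (16 of 183) without recurring edges. A fixed tolerance of 40 kb is a larger part of a small domain than of a large one. With a reciprocal overlap of 90% in its place, a setting added after seeing the data, 14.0% of the Th2 domains up to 400 kb and 24.3% of those above 2000 kb were matched, so the narrowest class was the lowest. Matches between libraries of the same cell type were also lowest in the widest class. Up to 400 kb they were 59.8% for Th2 and 56.8% for ES, and above 2000 kb they were 36.9% and 40.2%. Between cell types, single libraries matched in 23.4% of the smallest and 11.3% of the largest class, which was 40.1% and 29.3% of the matches within cell types.

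**Figure D5:**
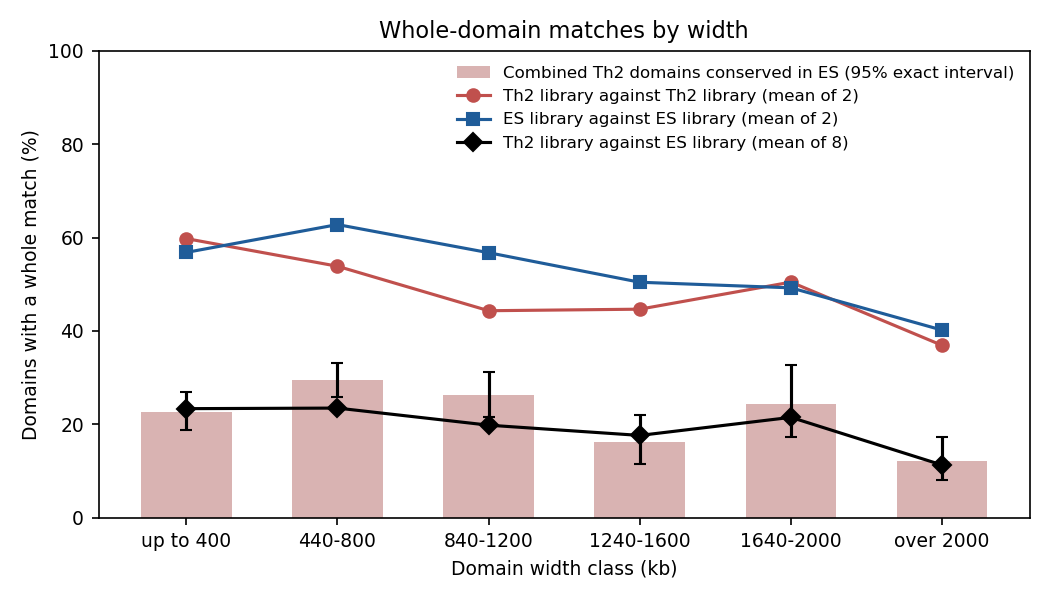
Share of domains with a whole match in 6 classes of width. Bars show the combined Th2 domains conserved in ES with 95% exact binomial intervals, red circles and blue squares show matches between replicate libraries of Th2 and of ES, and black diamonds show matches between a Th2 and an ES library. Bars and diamonds lie below both replicate lines in every class, and all are lowest above 2000 kb. The intervals treat domains as independent.

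Most Th2 domains that were not conserved whole had at least 1 edge near an ES edge. How many edges would lie that near in unrelated lists was not computed. In 960 (49.5% of all Th2 domains) 1 edge lay within 40 kb of an ES edge, and in 280 (14.4%) neither did. In another 238 (12.3%) both edges lay near ES edges but no single ES domain spanned them. Of those 238, 132 had 1 ES edge between their ends and 64 had 2. This class was wider, with a median of 1240 kb, than the conserved domains with 680 kb. Recovery in both Th2 libraries was 61.3% for conserved domains, 45.4% for those with both edges near ES edges, 39.5% for those with 1 and 27.1% for those with none. The share over all Th2 domains was 43.6%, which the class with both edges near ES edges exceeded slightly and the class with 1 such edge did not reach. These differences were not tested.

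Just inside the tolerance, 292 conserved domains had a larger offset of exactly 40 kb, with a median width of 720 kb. Just outside it, 83 Th2 domains had 1 edge within 40 kb and the other 80 kb from that of an ES domain, with a median width of 880 kb. The widest of these was chr16:81080001-84880000 (3800 kb), whose ES counterpart started 80 kb later and ended at the same position. It was followed by chr16:39080001-42080000 (3000 kb), whose counterpart ended 80 kb later. In Th2 library 1 that second domain ended 80 kb later too, at the end of the combined ES call. The first was called at 3800 kb in Th2 library 2. In Th2 library 1 the only call overlapping it was 1240 kb wide and began 3400 kb further downstream.

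The surroundings of the conserved domains also differed from those of the rest. A domain that shares an edge with the next one in its list is called abutting here, as opposed to being followed by a gap. Both sides were abutting for 230 conserved Th2 domains (49.7%), against 502 of the other Th2 domains (34.0%). The ES counterparts were abutting on both sides in 151 cases (32.6%), against 288 of the other ES domains (18.2%). Of the 926 flanks of conserved domains 415 (44.8%) were abutting in both cell types and 184 (19.9%) had a gap in both. Another 217 (23.4%) were abutting only in the Th2 map and 110 (11.9%) only in the ES map. The higher share of abutting sides in the Th2 map was also seen among the other domains above. Flanks of other domains were not compared between the maps. Abutting Th2 edges had the exact ES position in 66.1% of starts and 66.5% of ends, and edges at a gap in 53.2% of starts and 44.4% of ends. For 178 flanks gapped in both maps the median gap was 160 kb in both, and 94 of the gaps (52.8%) had the same length within 40 kb. The rule already places the near edge of each such gap within 40 kb. How many gaps would be as alike at other flanks or in unrelated lists was not computed.

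Conserved domains occurred singly and in runs. They formed 313 runs of consecutive Th2 domains, of which 93 held 2 or more, so that 243 of the 463 (52.5%) had a conserved neighbour. After a conserved domain an abutting next domain was conserved in 119 of 310 cases (38.4%), and after another Th2 domain in 203 of 856 (23.7%). Abutting domains share an edge, so keeping the first already places 1 edge of the second near an ES edge. Across a gap, where no edge is shared, the shares were 20.8% (31 of 149) and 17.7% (107 of 606), both below the 23.9% of the whole list. How many neighbours an unordered arrangement would give was not tested.

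The longest run held 7 domains between 79000001 and 84920000 on chromosome 17, a span of 5.92 Mb with a single gap of 40 kb in the Th2 map. In the ES map gaps of 40 kb also lay before the domains that start at 81000001 and 81560001. The members of the run were 1000, 200, 760, 520, 1880, 840 and 680 kb wide in the Th2 map and 1000, 200, 720, 520, 1840, 880 and 600 kb in the ES map. The domains of 1880 and 840 kb were whole in all 4 libraries. Those of 1000, 520 and 680 kb were each whole in 3 of the 4 libraries. The neighbours of 200 and 760 kb were whole in none. Over this pair Th2 library 1 had domains of 360 and 600 kb and Th2 library 2 had 1 domain of 1520 kb, while both ES libraries had 1 domain of 920 kb.

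All 20 chromosomes in the lists held conserved domains, from 19.3% of the Th2 domains on chromosome 5 (22 of 114) to 33.7% on chromosome 10 (34 of 101), with a median of 23.8%. The exact 95% interval held the share of the whole list for 19 of the 20, and chromosome 10 was the exception (24.6% to 43.8%). These intervals treat domains as independent, although abutting domains share an edge. On that footing up to 1 in 20 intervals is expected to miss, and the chromosomes are described here and not tested. Chromosome 10, named after its values were seen, also had the highest match between Th2 and ES libraries, at 29.7%. Its match within cell types was 53.8%, near the 52.5% of the whole genome. The combined maps come from these same libraries, so the high match is no independent support for the share on this chromosome. The 34 conserved domains of chromosome 10 summed to 27.8 Mb and included 1 run of 4, at chr10:5000001-8480000, and 4 runs of 3. The run of 4 includes the recurring edge at 7 Mb. It starts at 5 Mb, which was an edge on 8 chromosomes in the combined Th2 map and on 6 in the combined ES map. Chromosome X had 12 of 55 (21.8%).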

How the data were processed

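The 4 Hi-C libraries, 2 of Th2 and 2 of R1 ES cells, were grouped by their titles. The submitters' processing notes name Bowtie2 and the genome mm9. Which program called the domains, with which settings, and how libraries were combined is not stated there or in the labels. Per library and per cell type (combined), the authors deposited a list of domain starts and ends with no score. Tested on the files, all starts lie on a 40 kb grid, as do all ends apart from those at chromosome ends. Coordinates are printed 1-based in mm9. No gene annotation or genome of that build was used, so no genes or sequences are placed in the domains. The EL4 expression tables give no gene positions and were not analysed here.

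A domain was matched whole when start and end each lay within 40 kb of those of 1 domain of the other list. The matching was tested on simulated lists with known matches. Alternatives were 0, 80 and 120 kb, reciprocal overlap of 80% or 90%, domains of at least 400 kb, library support and single libraries. Recurring edges are positions used on 10 or more chromosomes in each list, which was decided once the lists had been inspected. Library pairs were compared by an exact permutation test. Intervals are exact binomial and treat domains as independent. The members and settings were chosen with earlier results of these data known. Regions were named by rule as the 5 widest, the 3 widest with identical edges in all lists, the longest run, the 3 widest whole in no library, the 2 narrowest and the 2 widest just outside the tolerance, passing over chromosome 18. Calculations used Python 3.11.15, numpy 2.4.6 and scipy 1.17.1, and plots matplotlib 3.10.9.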

Additional observations from a re-analysis of the deposited data

How the results depend on the processing

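The count of 463 conserved domains was 171 with exact edges, 556 at 80 kb and 624 at 120 kb. It was 185 when a domain had to be whole in both libraries of both cell types. A reciprocal overlap of 90% gave 483 domains and 80% gave 684, and domains of at least 400 kb gave 380. With a single library in place of a combined map the count was 384 to 463, and without recurring edges it was 440. With exact edges the share of conserved domains found in a library was 58.3% and 56.8% in Th2 libraries 1 and 2, and 57.2% and 54.9% in ES libraries 1 and 2. At 80 and 120 kb it stayed between 76.2% and 84.2%. The median width of conserved domains, 680 kb, lay below that of other Th2 domains in all edge-based settings, but with a reciprocal overlap of 90% or 80% it was 840 kb against 720 kb for the others, so the order of the widths depends on the matching rule. The match within minus between cell types was 20.6 points with exact edges and 30.5 to 33.3 points in the other settings, each with the exact permutation p of 0.333. With the replicate number as a block, so that only same-numbered Th2 and ES libraries were paired, it was 32.3 points. Same-numbered pairs matched in 20.1% and unlike-numbered pairs in 20.0%, and whether a number marks a shared preparation was not tested. Calls on a 40 kb grid with no score or depth limit every statement on offsets of a single step.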
